A study of Mus musculus with 22 samples.

Results

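The genes described here are the 37 genes encoded by the mitochondrial chromosome, chosen as every gene whose symbol starts with mt- in both deposited tables, out of 55409 genes in all. They comprise 13 protein-coding genes, 2 ribosomal RNA (rRNA) genes and 22 transfer RNA (tRNA) genes, and the choice used the name alone and no measured value. All 37 lie on chromosome M of mm10.

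The mitochondrial genome is a small circular molecule that is inherited from the mother. It encodes subunits of respiratory complexes I, III, IV and V together with the rRNAs and tRNAs of the mitochondrial ribosome, whereas complex II, the ribosomal proteins and the machinery for transcription and RNA processing come from nuclear genes. Both strands are transcribed as long precursors, and the tRNAs that sit between the other genes are cut out to release them. Most mitochondrial mRNAs carry short poly(A) tails. Stretches of mitochondrial DNA have also been copied into nuclear chromosomes, where they remain as pseudogenes.

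RNA sequencing was carried out on polyadenylated RNA of whole brain taken at P0, the day of birth, from pups of 2 mouse models of Prader-Willi syndrome and their wild-type (WT) littermates. PWS-cr pups are heterozygous for a deletion of the *Snord116* critical interval (strain B6(Cg)-Snord116tm1Uta/J), and PWS-IC pups are heterozygous for a deletion of the imprinting centre, in both models on the paternal chromosome. The sources used here do not name the strain of the dams of the sequenced pups. There were 6 PWS-cr and 5 WT libraries from 4 litters, and 4 PWS-IC and 5 WT libraries from 2 litters, each library being the brain of 1 pup, and total counts lay between 45798407 and 62103143. P-values measure the spread between these pups. Libraries are named by litter, pup and series, so that 1_3_IC is pup 3 of litter 1 of the PWS-IC series. All 4 PWS-IC libraries are labelled female, while 4 of the 5 WT libraries of that series are labelled male.

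As a check of the labels, *Snhg14*, the host transcript of the deleted interval, had between 2095 and 2654 counts in PWS-cr libraries and between 7002 and 8387 in their WT littermates. *Snrpn*, which a paternal imprinting centre deletion silences, had between 255 and 425 counts in 3 PWS-IC libraries and 18116 in the library labelled 1_3_IC. In the WT libraries of that series it had between 12281 and 16556 counts in 4, and 343 in the library labelled 1_7_IC. The sex-linked transcripts also went against both labels. The library labelled 1_3_IC (female) had 64 counts of *Xist* and 3191 of *Eif2s3y*, and that labelled 1_7_IC (male) had 124574 and 9. Results for PWS-IC are therefore given as labelled and again without this pair, which leaves 3 PWS-IC and 4 WT libraries.

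Mitochondrially encoded genes held nearly the same share of all counts in every brain. The share was between 2.69% and 3.14% over the 20 libraries, with a mean of 2.86% ± 0.126 (SD, n = 20). In the PWS-cr series it was 2.87% ± 0.0900 (SD, n = 6) in mutants and 2.88% ± 0.152 (SD, n = 5) in WT. In the PWS-IC series it was 2.94% ± 0.159 (SD, n = 4) in mutants and 2.76% ± 0.0646 (SD, n = 5) in WT as labelled, and 2.97% ± 0.184 (SD, n = 3) and 2.77% ± 0.0658 (SD, n = 4) without the 2 libraries in doubt. The groups overlapped in both series. The rRNA genes alone held 0.413% ± 0.0212 (SD, n = 4) in PWS-IC and 0.340% ± 0.0343 (SD, n = 5) in WT, again with overlap. Within litter 1 of the PWS-IC series the means were 3.00% in mutants (n = 2) and 2.77% in WT (n = 3), and within litter 4 they were 2.88% (n = 2) and 2.74% (n = 2). In bulk tissue, a change in the number of cells rich in mitochondria cannot be told apart from a change in mitochondrial RNA per cell.

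Protein-coding genes supplied most of these counts. They made up between 89.2% and 90.7% of the mitochondrially encoded counts in the PWS-cr series and between 84.6% and 88.6% in the PWS-IC series. The tRNA genes together supplied between 2894 and 7323 counts a library, at most 0.0134% of all counts.

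Levels of different genes were compared as CPM, counts per 1000000 counts of the library, per kilobase of gene. *mt-Co1*, which encodes subunit 1 of cytochrome c oxidase (complex IV), was highest, with a mean of 5155 CPM per kilobase over the 20 libraries. It held between 26.2% and 29.3% of all mitochondrially encoded counts. *mt-Nd1*, a complex I subunit, followed with 4315 CPM per kilobase and *mt-Cytb*, the cytochrome b of complex III, with 4102. *mt-Nd1* was above *mt-Cytb* in 10 of 20 libraries, and these split by series. They were every library of the PWS-IC series and, in the PWS-cr series, 4_2_Cr alone (4601 and 4546 CPM per kilobase). *mt-Co1* was above *mt-Nd1* in 20 of 20. The complex I subunits *mt-Nd2*, *mt-Nd6*, *mt-Nd5* and *mt-Nd4* had 2311, 1927, 1657 and 1490 CPM per kilobase. The rRNAs *mt-Rnr2* (16S, of the large ribosomal subunit) and *mt-Rnr1* (12S, of the small subunit) had 1339 and 1177 CPM per kilobase, in libraries selected for poly(A). From *mt-Nd2* down to *mt-Rnr1* the ranges of neighbours in this order overlapped, while *mt-Cytb* lay above *mt-Nd2* in all libraries without overlap.

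*mt-Nd6* is the single protein-coding gene annotated on the minus strand, and its level per kilobase was above that of *mt-Nd5*, beside it on the plus strand, in 20 of 20 libraries, although their ranges overlapped. The libraries were unstranded, so reads from both strands over this locus cannot be told apart. The same holds for the tRNAs. The highest was *mt-Tp* (tRNA for proline, minus strand) with 368 CPM per kilobase, followed by *mt-Te* (glutamate, minus strand) with 221 and *mt-Tc* (cysteine, minus strand) with 162. The tRNA genes annotated on the minus strand held between 2402 and 5724 counts a library and those on the plus strand between 492 and 1599.

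A run of 11 neighbouring genes was nearly empty of counts. It reached from *mt-Ts1* to *mt-Nd4l* (chrM:6870-10173) and held *mt-Ts1*, *mt-Td*, *mt-Co2*, *mt-Tk*, *mt-Atp8*, *mt-Atp6*, *mt-Co3*, *mt-Tg*, *mt-Nd3*, *mt-Tr* and *mt-Nd4l*. The protein-coding genes among them encode the other 2 mitochondrial subunits of complex IV, both mitochondrial subunits of ATP synthase (complex V) and 2 subunits of complex I. Over the 20 libraries, *mt-Co2* had between 1 and 15 counts, *mt-Co3* between 2 and 14, *mt-Atp6* between 2 and 10, *mt-Atp8* between 0 and 3 and *mt-Nd4l* between 0 and 7. *mt-Co1*, the next gene upstream, had between 363967 and 484258. The tRNAs *mt-Td* and *mt-Tk* were at 0 in all 20 libraries. All 11 genes together had between 193 and 309 counts in PWS-cr libraries and between 20 and 36 in PWS-IC libraries, in mutants and WT alike.

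**Figure D1:**
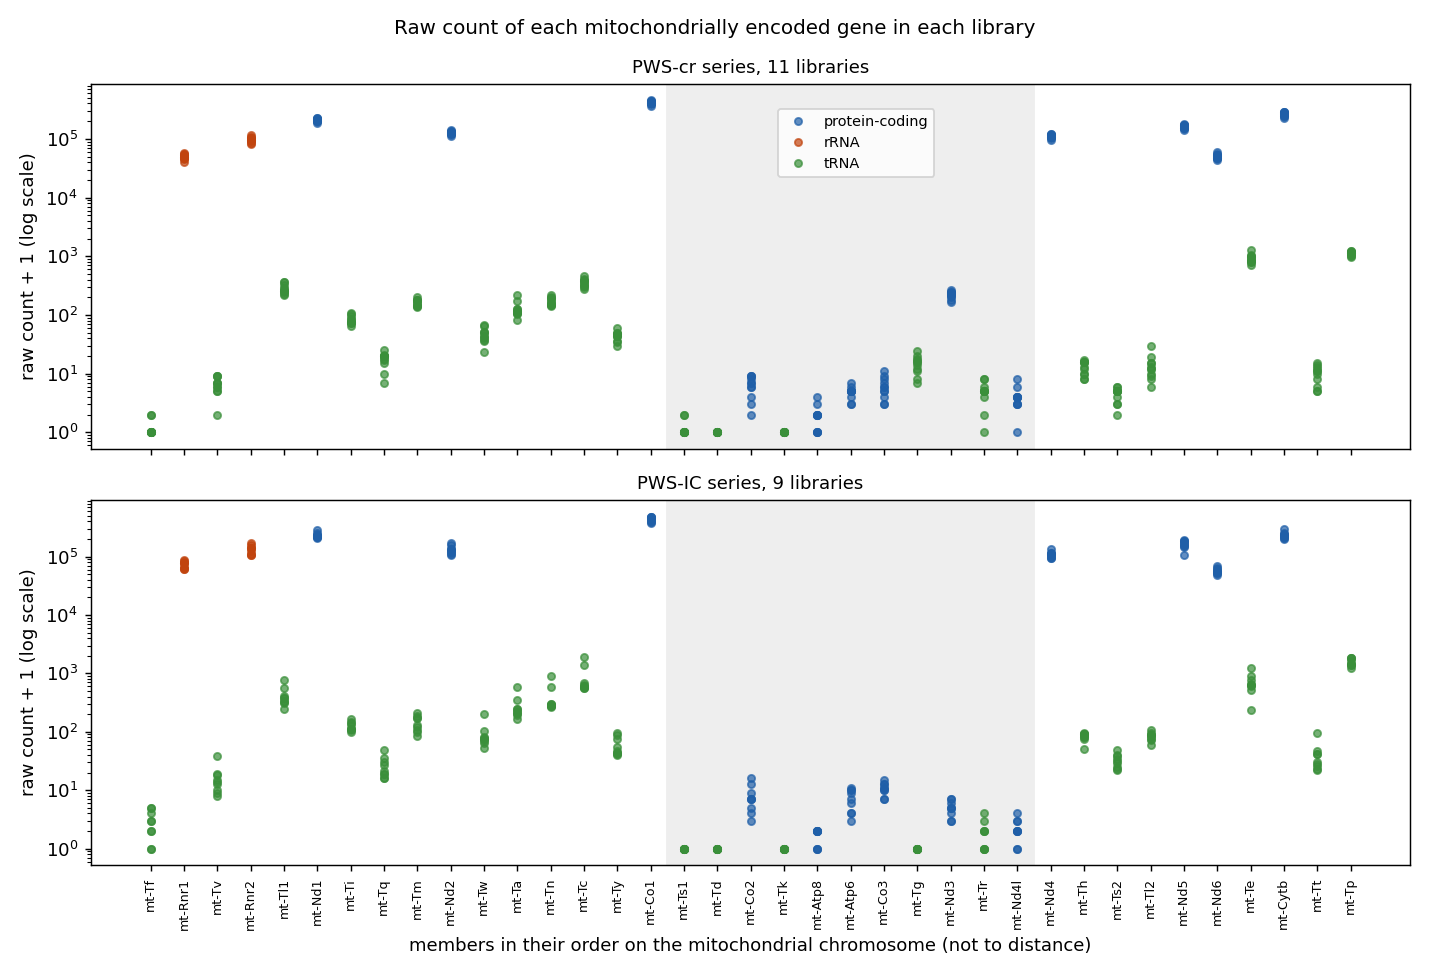
Raw count plus 1 (log axis) of each of the 37 mitochondrially encoded genes in each library, in their order on the molecule, for the PWS-cr series (top, 11 libraries) and the PWS-IC series (bottom, 9 libraries). Each point is a library, and the grey band marks the run of 11 genes from *mt-Ts1* to *mt-Nd4l*, which lie far below *mt-Co1* on one side and *mt-Nd4* on the other.

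Most protein-coding genes of this run have nearly identical annotated copies on chromosome 1. In the mm10 annotation, 7 pseudogenes on the minus strand of chr1:24611535-24616197 (4663 bases) matched genes of the run or the genes on either side of it. *Gm28661* matched 681 bases of *mt-Co2*, *Gm10925* 678 bases of *mt-Atp6*, *Gm28437* 783 bases of *mt-Co3* and *Gm10222* 294 bases of *mt-Nd4l*, all without a difference. *Gm28439* matched the first 876 of the 1378 bases of *mt-Nd4* without a difference, and *Gm29216* matched 483 bases at the 3′ end of *mt-Co1* with a single difference (A1066T, counted from 1 at the 5′ end of *mt-Co1*, the base of *mt-Co1* first). A read from within an identical stretch cannot be assigned to one locus. The pseudogenes were low as well. Leaving aside *Gm28438*, described next, each had between 2 and 148 counts in a library. Whether reads shared between the copies were left out of the counts was not tested, since the reads were not analysed here.

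The genes on either side of the run shared part of their length with these copies. The whole count of each gene was also divided by the bases outside its longest identical stretch alone. The level of *mt-Nd4* was then 4091 CPM per kilobase instead of 1490, and that of *mt-Co1* was 7472 instead of 5155. This takes every counted read as lying outside that stretch, which was not tested. By this measure *mt-Nd4* stood beside *mt-Cytb* (4278) rather than below *mt-Nd5* (1749). The order of the protein-coding genes thus depended on which bases were taken as countable.

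*mt-Nd3*, a complex I subunit in the same run, was the 1 gene of the 11 with more than 30 counts in any library, and there in the PWS-cr series alone. It had between 164 and 245 counts in PWS-cr mutants and between 177 and 270 in their WT littermates. In the PWS-IC series it had between 2 and 6 in mutants and between 4 and 6 in WT. Its chromosome 1 copy *Gm28438* (chr1:24612775-24613119, minus strand) went the other way, with between 2 and 5 counts in PWS-cr mutants and between 3 and 8 in their WT littermates, against between 433 and 694 in PWS-IC mutants and between 398 and 575 in their WT littermates. The series did not overlap for either gene, and within each series mutants and WT did.

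The gene and its copy differ at 1 of 345 compared bases, T3C in the same notation, at base 3 of *mt-Nd3* and position 9461 of chromosome M. The first 120 bases of each are shown because this base is the single difference found over the compared stretch, with the differing base in capitals (mm10, transcript sequences of GENCODE M21). They lie at chrM:9459-9578 on the plus strand and chr1:24613000-24613119 on the minus strand.
mt-Nd3: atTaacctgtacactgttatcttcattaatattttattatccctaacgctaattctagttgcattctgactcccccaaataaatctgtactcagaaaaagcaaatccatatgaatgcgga
Gm28438: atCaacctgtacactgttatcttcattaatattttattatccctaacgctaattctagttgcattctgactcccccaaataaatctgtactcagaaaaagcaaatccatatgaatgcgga
The remaining compared bases are the same in both. Which base the reads of each series carried was not tested.

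**Figure D2:**
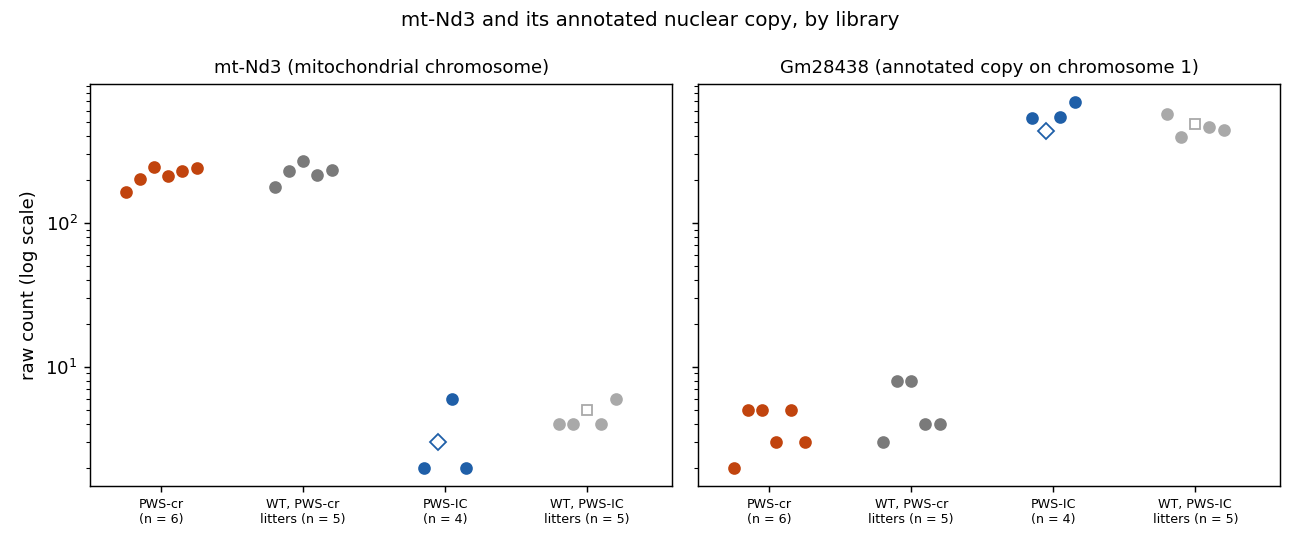
Raw counts (log axis) of *mt-Nd3* and of its annotated chromosome 1 copy *Gm28438* in each library, by group. Each point is a library, the open diamond is 1_3_IC and the open square 1_7_IC. *mt-Nd3* lies at 164 or above in the PWS-cr series and at 6 or below in the PWS-IC series, and *Gm28438* at 8 or below and at 398 or above.

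The 2 series also differed in *mt-Cytb*, in rRNA and in single tRNAs, whatever the genotype. How many of all genes separate the series was not counted. *mt-Cytb* was between 4880 and 5337 CPM in the PWS-cr series and between 4003 and 4684 CPM in the PWS-IC series. *mt-Tc* (5.18 to 8.38 CPM, then 9.34 to 38.6) and *mt-Tn* (2.70 to 3.96 CPM, then 4.32 to 18.6) did not overlap between the series either. The rRNAs held between 0.247% and 0.315% of all counts in the PWS-cr series and between 0.299% and 0.427% in the PWS-IC series, with overlap. As a share of mitochondrially encoded counts they held between 9.07% and 10.6% in the former and between 11.1% and 15.2% in the latter, without overlap. Among the tRNAs, *mt-Th* (histidine) had between 7 and 16 counts in the PWS-cr series and between 49 and 95 in the PWS-IC series, *mt-Ts2* (serine) between 1 and 5 and between 21 and 47, and *mt-Tl2* (leucine) between 5 and 29 and between 58 and 107. These 3 tRNA genes are neighbours between *mt-Nd4* and *mt-Nd5*. *mt-Tg* (glycine), next to *mt-Nd3*, had between 6 and 23 counts in the PWS-cr series and 0 in all 9 libraries of the PWS-IC series, where 0 counts allow at most 3 counts of each total. *Rn7sk*, a small nuclear RNA without a poly(A) tail, had between 120 and 276 counts in the PWS-cr series and between 966 and 1967 in the PWS-IC series. The sum over all listed entries for RNAs without a poly(A) tail did not follow *Rn7sk*. It was between 33.2 and 73.6 CPM in the PWS-cr series and between 19.3 and 37.8 CPM in the PWS-IC series, with overlap. The higher sums of the PWS-cr series thus came from entries other than *Rn7sk*. The entries listed differed in number, 21 in the PWS-cr series and 19 in the PWS-IC series. Of these, 2 and 3 had enough counts to be tested for genotype. The sum is therefore not read as a trend of the class. The part of RNA without a poly(A) tail in the differences between the series was not tested, and model, litters and any difference in handling between the series cannot be told apart.

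**Figure D3:**
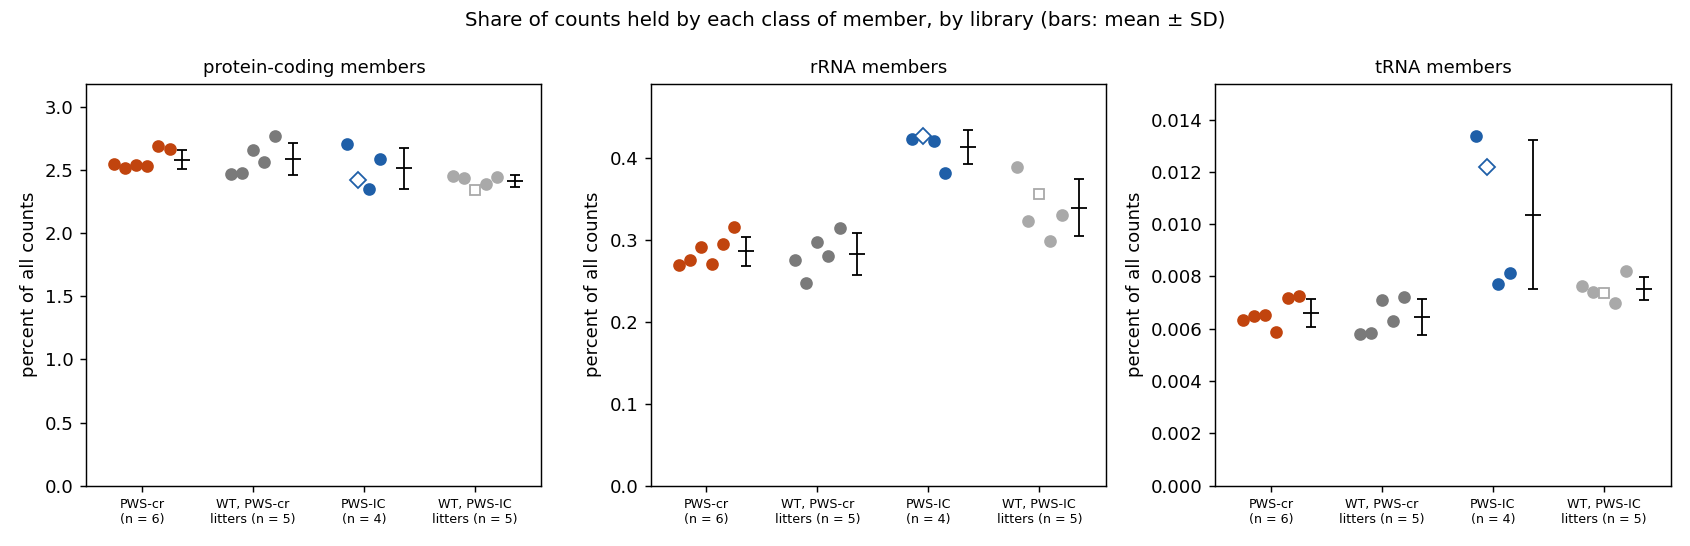
Share of all counts, in percent, held by the protein-coding, rRNA and tRNA genes of the mitochondrial chromosome in each library, by group. Points are libraries (open diamond 1_3_IC, open square 1_7_IC) and bars are the mean ± SD. The rRNA share is between 0.247% and 0.315% in the PWS-cr series and reaches 0.427% in the PWS-IC series, and the tRNA share is highest in 1_10_IC and 1_3_IC.

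Genotype was then tested gene by gene with edgeR's quasi-likelihood test, on genes that reached 10 counts in 4 or more libraries of a series, with Benjamini-Hochberg adjustment over all genes tested. In the PWS-cr series 25 of the 37 mitochondrially encoded genes passed this filter (8 protein-coding, 2 rRNA and 15 tRNA) and 12 did not. In the PWS-IC series 26 passed (8, 2 and 16) and 11 did not. The protein-coding genes tested were *mt-Nd1*, *mt-Nd2*, *mt-Co1*, *mt-Nd4*, *mt-Nd5*, *mt-Nd6* and *mt-Cytb* in both, with *mt-Nd3* added in the former and *mt-Co3* in the latter.

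In PWS-cr brain no mitochondrially encoded gene was called against WT. Of 25 tested, 0 had an adjusted p under 0.05, where 0.0135% of all 22172 genes tested did, and DESeq2 called 0 as well. At an unadjusted p under 0.05 there was 1 of 25, beside 2.07% of all genes tested. This gene was *mt-Tc*, with a log2 fold change of 0.24 (SE 0.104, edgeR adjusted p = 1.00). Fold changes of mutant over WT were positive for 21 genes and negative for 4, with a median of 0.07 on the log2 scale beside 0.00 for all genes tested. That lean depended on the litter term. Without it 12 were positive and 13 negative, and the median was -0.00.

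The most abundant RNAs were close to level between the genotypes of this series. *mt-Co1* was between 7715 and 8342 CPM in the 6 PWS-cr libraries (median 7935) and at 7785, 7825, 7875, 8177 and 8557 CPM in WT. The groups overlapped, and its log2 fold change, fitted with litter, was 0.02 (SE 0.0473). *mt-Rnr2* was between 1802 and 2084 CPM in PWS-cr (median 1858) and between 1601 and 2108 in WT (median 1825), with a log2 fold change of 0.10 (SE 0.0762). *mt-Rnr1* was between 892 and 1070 CPM in PWS-cr (median 911) and between 872 and 1112 in WT (median 929), with one of 0.04 (SE 0.0581). Both rRNAs thus overlapped between genotypes. For *mt-Nd6*, with between 934 and 1056 CPM in PWS-cr and between 871 and 1097 in WT, it was 0.08 (SE 0.0656). For *mt-Tp*, with between 19.5 and 24.4 CPM and between 18.2 and 24.1, it was 0.08 (SE 0.0602). *mt-Nd3* overlapped as well, with a log2 fold change of 0.10 (SE 0.116). Counts of the 7 abundant protein-coding genes varied little between pups, with a coefficient of variation of CPM between 2.78% and 4.91% in PWS-cr and between 2.69% and 10.9% in WT. The extremes were rare tRNAs. *mt-Tq* (glutamine) had the largest positive log2 fold change, 0.43 (SE 0.328), on between 14 and 19 counts in PWS-cr and between 6 and 24 in WT. *mt-Tt* (threonine) had the largest negative one, -0.59 (SE 0.341), on between 4 and 12 counts in PWS-cr and between 9 and 14 in WT. Neither passed edgeR's test (adjusted p = 1.00 for both), and for both genes the groups overlapped.

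In PWS-IC brain as labelled, no mitochondrially encoded gene was called either. Of 26 tested, 0 had an adjusted p under 0.05, as did 0% of the 22367 genes tested, and DESeq2 called 0 of the 26. Fold changes were positive for 23 genes and negative for 3, with a median of 0.23 on the log2 scale beside 0.00 for all genes. At an unadjusted p under 0.05 there were 7 of 26, all higher in PWS-IC, beside 8.23% of all genes tested. They were *mt-Rnr2* and the tRNAs *mt-Tq*, *mt-Ty*, *mt-Ta*, *mt-Tc*, *mt-Tw* and *mt-Tn*, each with an adjusted p of 0.565. *mt-Tq* had the largest positive log2 fold change (1.11, SE 0.264) and *mt-Th* the largest negative one (-0.16, SE 0.182), with between 49 and 91 counts in PWS-IC and between 75 and 95 in WT.

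Without the libraries labelled 1_3_IC and 1_7_IC, 1 of the 26 genes was called, where 0.242% of the 21913 genes tested were. It was *mt-Ty*, the tRNA for tyrosine, with a log2 fold change of 1.03 (SE 0.170, edgeR adjusted p = 0.0400). At an unadjusted p under 0.05 there were 9 of 26, again all higher in PWS-IC, beside 12.8% of all genes. Fold changes were positive for 23 and negative for 3, with a median of 0.25 beside 0.00 for all genes.

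*mt-Ty* rested on few counts. It had 93, 74 and 87 counts in 1_10_IC, 4_4_IC and 4_5_IC, and 46, 42, 39 and 41 in the WT libraries 1_1_IC, 1_5_IC, 4_3_IC and 4_6_IC. All 3 mutants were above all 4 WT, and so necessarily within each litter as well, with 1_10_IC the single mutant of litter 1. How many of all genes separate these 7 libraries by genotype was not counted. The call appeared with the 2 libraries left out together. With 1_3_IC alone left out the log2 fold change was 1.01 (edgeR adjusted p = 0.276), and with 1_7_IC alone 0.84 (0.757). With labelled sex in the fit of all 9 libraries it was 0.81 (SE 0.408, edgeR adjusted p = 0.834). That fit used the labels of 1_3_IC and 1_7_IC, which their sex-linked transcripts go against. On the CPM scale the means were 1.51 ± 0.163 (SD, n = 3) and 0.760 ± 0.0639 (SD, n = 4). The library labelled 1_3_IC had 42 counts (0.856 CPM) and that labelled 1_7_IC had 54 (0.894 CPM), both near the WT libraries. By its *Snrpn* count 1_7_IC went with the 3 mutants, but its *mt-Ty* level lay below theirs, which ran from 1.40 to 1.70 CPM. In the PWS-cr series the gene had between 29 and 58 counts, the groups overlapped, and the log2 fold change was -0.01 (SE 0.217).

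*mt-Ty* lies in a cluster of 5 tRNA genes between *mt-Nd2* and *mt-Co1*, in the order *mt-Tw* (tryptophan, plus strand), then *mt-Ta* (alanine), *mt-Tn* (asparagine), *mt-Tc* and *mt-Ty*, the last 4 on the minus strand. *mt-Ty* was the gene called, *mt-Tc* lies next to it and *mt-Tn* lies next to *mt-Tc*. For this reason the sequences of *mt-Ty* (chrM:5260-5326), *mt-Tc* (chrM:5192-5257) and *mt-Tn* (chrM:5089-5159) are shown (mm10, GENCODE M21, minus strand, anticodon in capitals).
mt-Ty: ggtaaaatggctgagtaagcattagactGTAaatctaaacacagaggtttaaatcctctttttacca
mt-Tc: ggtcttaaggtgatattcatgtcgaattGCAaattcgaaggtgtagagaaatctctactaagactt
mt-Tn: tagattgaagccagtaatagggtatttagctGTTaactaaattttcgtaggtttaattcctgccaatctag
They are 67, 66 and 71 bases long. A gene count does not tell a mature tRNA from a precursor that runs on into the neighbouring genes.

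The 5 genes of the cluster differed in which libraries were high. *mt-Ta* was at 10.6, 4.66 and 5.65 CPM in 1_10_IC, 4_4_IC and 4_5_IC and at 4.91 in 1_3_IC, against between 2.86 and 4.31 in the 5 WT libraries, so that the groups as labelled did not overlap. Its log2 fold change was 0.87 (SE 0.241) as labelled and 0.97 (SE 0.227, edgeR adjusted p = 0.188) without the pair. Grouped by *Snrpn* counts instead, the *mt-Ta* levels would overlap, since 1_7_IC, labelled WT, lay below 1_3_IC. How many of all genes separate as *mt-Ta* did was not counted. *mt-Tw* was at 3.72, 1.59 and 1.67 CPM in the same 3 mutants and at 1.49 in 1_3_IC, against between 0.955 and 1.51 in WT. *mt-Tn* and *mt-Tc* stood apart in other libraries. *mt-Tn* was at 18.6 CPM in 1_3_IC and 10.8 in 1_10_IC but at 5.24 and 4.32 in the other PWS-IC libraries, within or below the 4.70 to 5.81 of WT. *mt-Tc* was at 38.6 CPM in 1_3_IC and 25.6 in 1_10_IC, and at 11.3 and 10.8 in the other 2, against between 9.34 and 12.6 in WT. Their log2 fold changes of 0.85 (SE 0.327) and 0.97 (SE 0.314) as labelled were 0.38 (SE 0.223) and 0.55 (SE 0.228) without the pair in doubt.

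**Figure D4:**
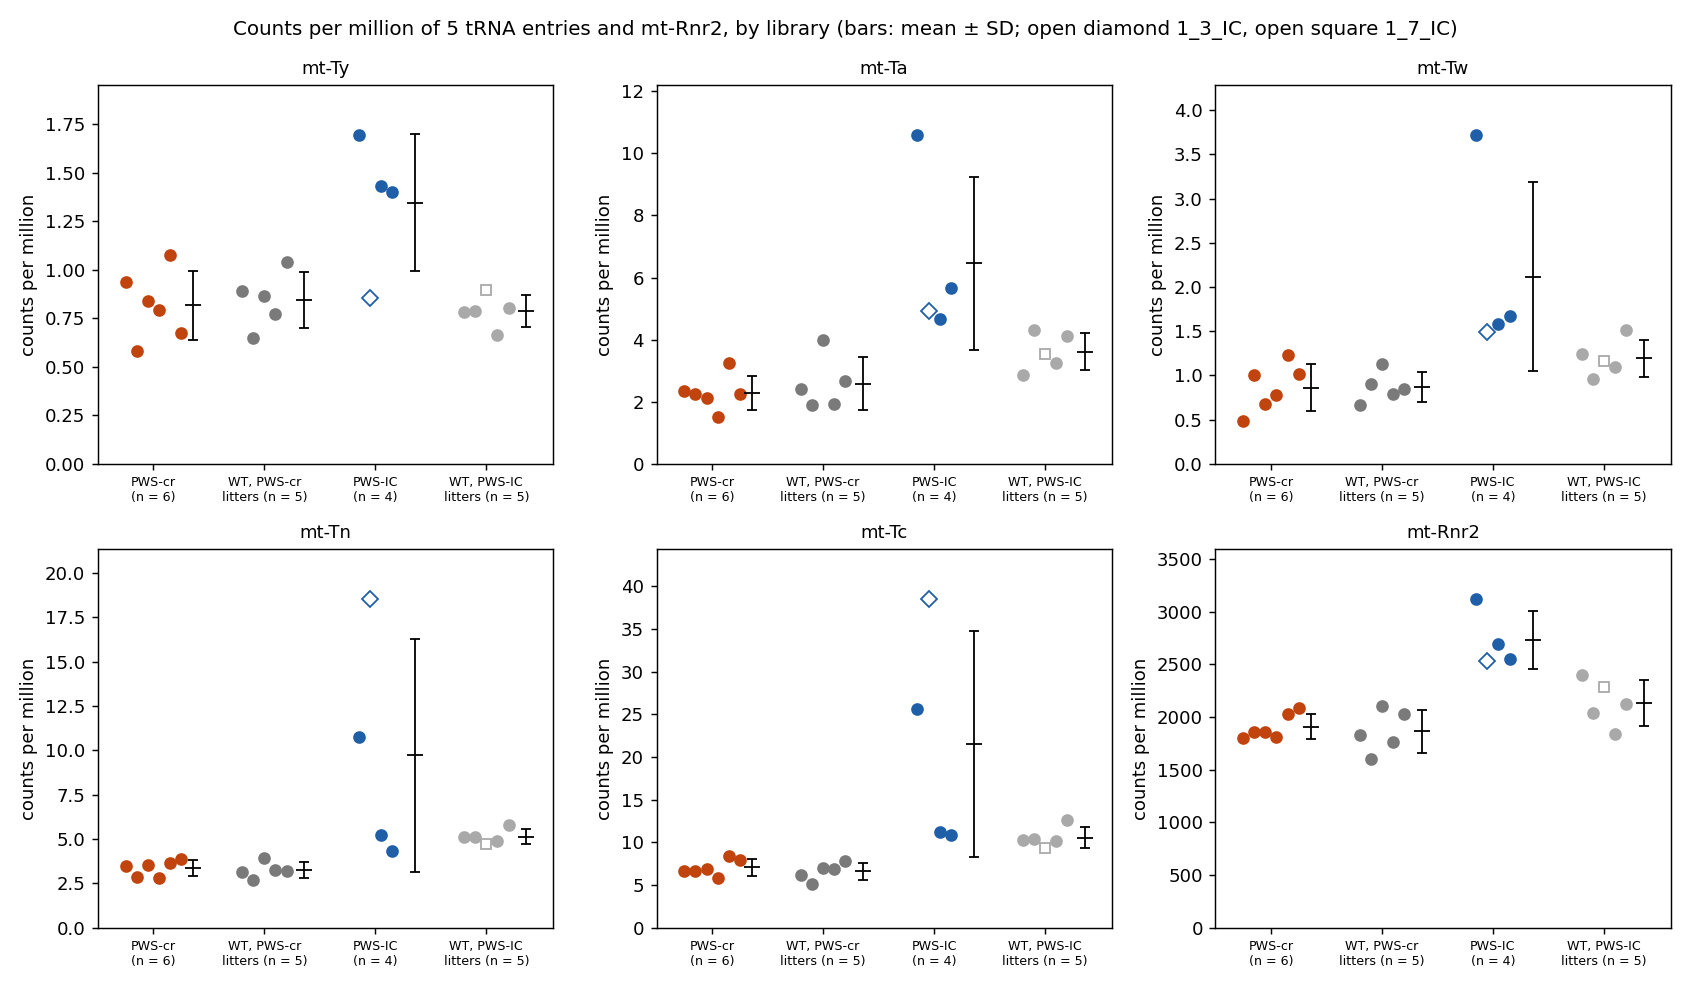
CPM of the 5 tRNA genes of the cluster between *mt-Nd2* and *mt-Co1*, and of *mt-Rnr2*, in each library by group. Points are libraries, the open diamond is 1_3_IC, the open square is 1_7_IC, and bars are the mean ± SD. For *mt-Ty* the 3 filled PWS-IC points, from 1.40 to 1.70, lie above all WT points of that series, and for *mt-Tn* and *mt-Tc* the high points are 1_3_IC and 1_10_IC.

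*mt-Rnr2* was the abundant RNA with the largest difference in this series. It was at 3123, 2697 and 2553 CPM in 1_10_IC, 4_4_IC and 4_5_IC and at 2533 in 1_3_IC, against 2401, 2034, 1841, 2120 and 2283 in 1_1_IC, 1_5_IC, 4_3_IC, 4_6_IC and 1_7_IC. The groups did not overlap, as labelled or without the pair. Grouped by *Snrpn* counts instead, they would overlap, since 1_7_IC (2283 CPM) lay below 1_3_IC (2533 CPM). How many of all genes separate in these ways was not counted. The log2 fold change of *mt-Rnr2* was 0.40 (SE 0.0943, edgeR adjusted p = 0.565) as labelled. Without the pair it was 0.46 (SE 0.0870, edgeR adjusted p = 0.0830), so it missed the threshold in both. The other rRNA, *mt-Rnr1*, had log2 fold changes of 0.20 (SE 0.136) and 0.06 (SE 0.117), with 1113, 1517 and 1265 CPM in the 3 mutants and between 1149 and 1489 in the 4 WT. The library labelled 1_3_IC had 1735 CPM of it and that labelled 1_7_IC had 1274, so that the groups overlapped either way.

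The abundant mRNAs differed less. *mt-Co1* was at 8771, 7263, 7798 and 8384 CPM in 1_10_IC, 4_4_IC, 4_5_IC and 1_3_IC, against between 7520 and 8131 in the 5 WT libraries. The mutants lay on both sides of WT, with a log2 fold change of 0.08 (SE 0.0845), and of 0.04 (SE 0.0765) without the pair. *mt-Nd6* was at 1148, 1017, 1099 and 972 CPM in the same libraries and between 945 and 1039 in WT, with log2 fold changes of 0.11 (SE 0.0798) and 0.13 (SE 0.0647). *mt-Tp* was at 33.0, 24.2, 23.5 and 37.8 CPM and between 24.6 and 31.1 in WT, with 0.16 (SE 0.128) and 0.03 (SE 0.104). Both overlapped between genotypes. *mt-Nd5* was lowest in 1_3_IC, at 2132 CPM where the other 8 libraries had between 2773 and 3398. That library was also lowest for *mt-Te*, at 4.87 CPM where the others had between 8.75 and 22.3. *mt-Tq* was highest in 1_3_IC with 48 counts. The other PWS-IC libraries had 30, 26 and 34 counts of it and the WT libraries between 15 and 20. The coefficients of variation of the 7 abundant protein-coding genes were between 5.72% and 18.8% in PWS-IC as labelled and between 2.49% and 6.32% in WT.

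**Figure D5:**
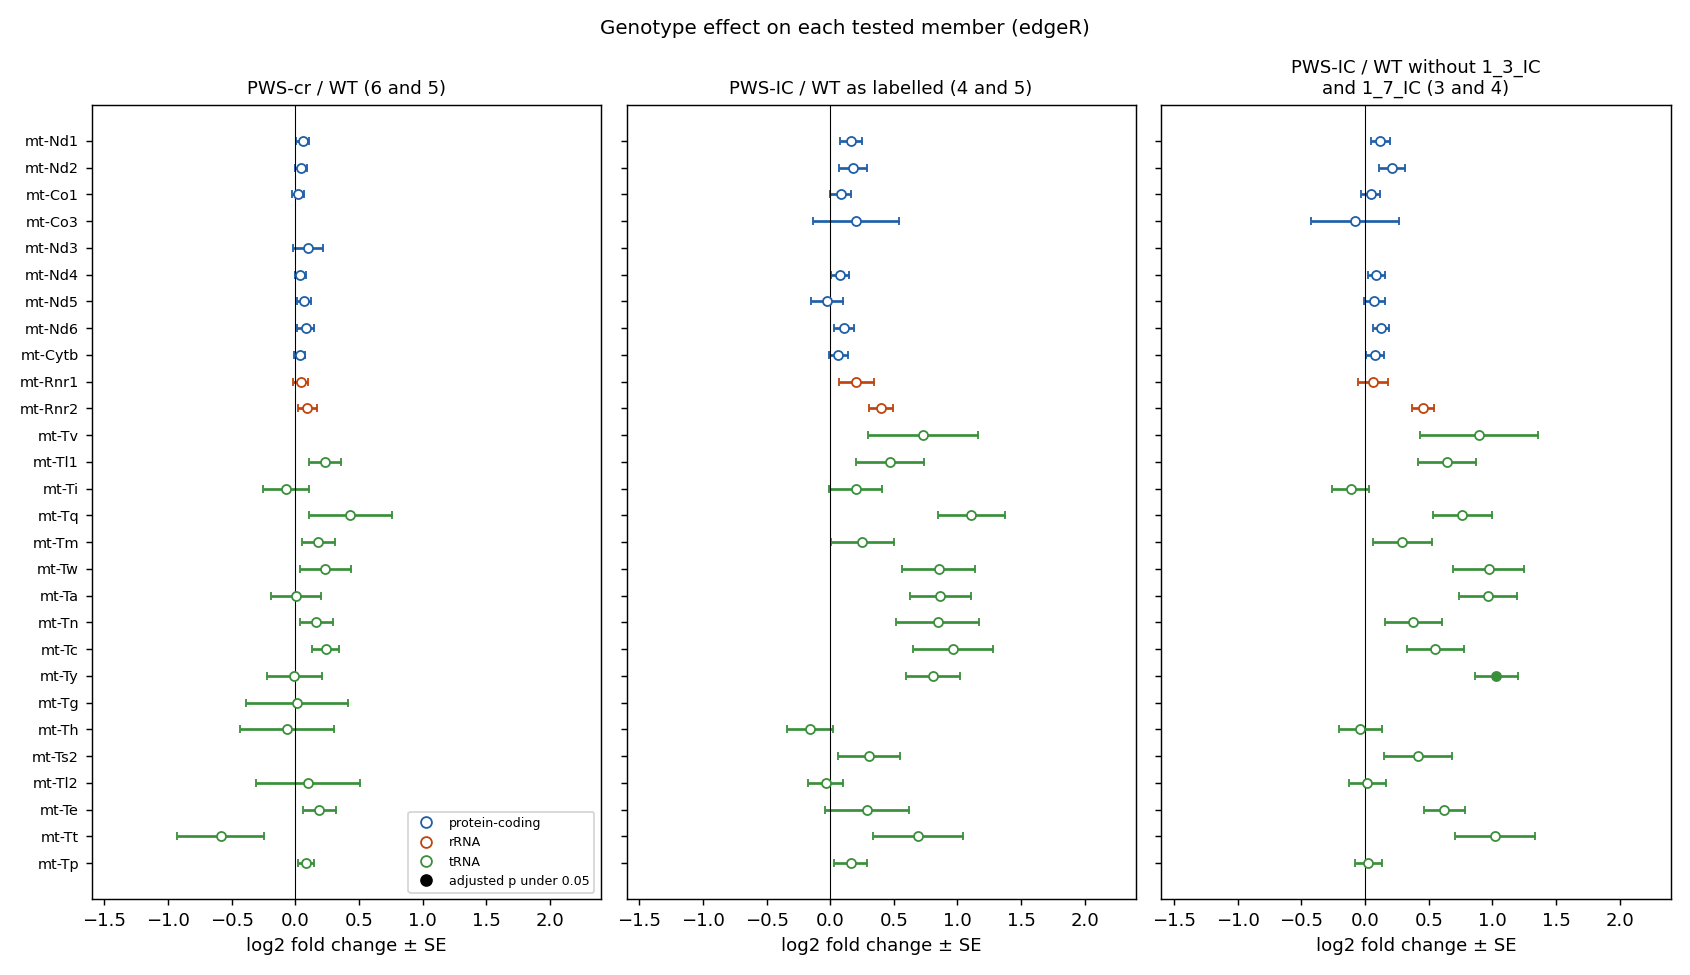
Log2 fold change (mutant over WT) ± SE from edgeR for each mitochondrially encoded gene tested, in PWS-cr, in PWS-IC as labelled and in PWS-IC without 1_3_IC and 1_7_IC. Colours give the class and filled points an adjusted p under 0.05. The single filled point is *mt-Ty*, at 1.03 in the third panel, and the protein-coding genes lie between -0.08 and 0.21.

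Red-cell RNA was higher in all 3 mutants than in all 4 WT of the 7 libraries. Summed over 10 erythroid markers in the table, of which none was at 0 throughout, the level was between 451 and 654 CPM in the 3 mutants and between 137 and 331 CPM in the 4 WT, with 371 in 1_3_IC and 1029 in 1_7_IC. Of 8 markers tested there, 8 had a positive log2 fold change and 1 was called, *Hbb-bt*, a beta globin (1.08, SE 0.174, edgeR adjusted p = 0.0365). In the PWS-cr series the level was between 91.1 and 143 CPM. Of 19 entries for RNAs without a poly(A) tail, 3 were tested as labelled, and 0 were called. All 3 were higher in PWS-IC at an unadjusted p under 0.05, with log2 fold changes of 1.78 for *Rny3*, 1.53 for *Rny1* and 0.41 for *Rn7sk* (edgeR adjusted p = 0.565 for each). Among the 7 libraries 2 were tested and 0 called, with 1.34 for *Rny1* and 0.48 for *Rn7sk* (SE 0.123, edgeR adjusted p = 0.212). Their part in the differences of *mt-Ty* and *mt-Rnr2* was not tested. Sex and genotype are nearly the same division in this series, and among the 7 libraries all 3 mutants are female and 3 of 4 WT are male, so genotype and sex can hardly be told apart.

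The genotype effects of the models were compared in 1 fit over both series, as PWS-IC minus PWS-cr. Of 28 mitochondrially encoded genes tested, 0 were called (edgeR), as were 0% of all 23771 genes, and DESeq2 called 0 of the 28. At an unadjusted p under 0.05 there were 4, beside 4.73% of all genes. These were *mt-Ty* with a difference of log2 fold changes of 0.83 (SE 0.307), *mt-Ta* with 0.87 (SE 0.334), *mt-Rnr2* with 0.32 (SE 0.122) and *mt-Tt* with 1.30 (SE 0.548), each with an adjusted p of 0.836. *mt-Tt*, with 93, 30, 40 and 25 counts in 1_10_IC, 4_4_IC, 4_5_IC and 1_3_IC and between 21 and 46 in WT, was the largest positive difference. *mt-Nd3* had the most negative value (-0.55, SE 0.393), but it entered this fit through its PWS-cr counts alone, had 2 to 6 counts in PWS-IC libraries, and was at 0.20 with nuclear copies added, so no direction is read from it. *mt-Tg*, at 0 in the PWS-IC series, gives no estimate. Without the libraries in doubt 0 of 28 were called, beside 0.182% of 23574 genes, and *mt-Ty* had 1.04 (SE 0.279, edgeR adjusted p = 0.356). At an unadjusted p under 0.05 there were 4 of 28, beside 8.16% of all genes.

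The nuclear-encoded partners of these genes gave no calls in either model. The lists below hold genes for respiratory complexes, mitochondrial transcription and replication, RNA processing, and ribosomal proteins. Over all genes tested, 0.0135% were called in PWS-cr, 0% in PWS-IC as labelled and 0.242% without the pair in doubt. At such shares, 0 calls say little about these lists. In PWS-cr, 0 of the 37 nuclear subunits of complex I, 4 of complex II, 9 of complex III, 16 of complex IV and 18 of complex V that were tested were called in either direction. Their median log2 fold changes were between 0.04 and 0.05, beside 0.00 for all genes. Positive values were found for 37 of 37 genes of complex I, 4 of 4 of complex II and 9 of 9 of complex III. For complexes IV and V they were found for 13 of 16 and 18 of 18, beside 51.9% of all genes. The smallest p among the complex I genes was that of *Ndufa10* (0.08, SE 0.0363, edgeR adjusted p = 1.00). Of 77 mitochondrial ribosomal protein genes 0 were called and 49 were positive, with a median of 0.02, and *Mrpl43* had the smallest p (0.13, SE 0.0538, edgeR adjusted p = 1.00). Of 22 genes for transcription and replication and 31 for RNA processing 0 were called, with medians of 0.00 and 0.01.

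In PWS-IC as labelled the same lists leaned upward without a call, and 1 library stood apart in them. The medians were 0.34 for complex I, with 37 of 37 genes positive, 0.28 for complex II, 0.36 for complexes III, IV and V and 0.25 for ribosomal proteins, with 77 of 77 positive. *Mrpl48* had the smallest p among the latter (0.34, SE 0.101, edgeR adjusted p = 0.565). Of all genes tested, 50.7% were positive. The nuclear complex I genes summed to 3105 CPM in 1_3_IC and to between 1603 and 1911 CPM in the other 8 libraries, and those of complex IV to 2265 CPM and between 1057 and 1323. Ribosomal protein genes summed to 2837 CPM in 1_3_IC and to between 1682 and 1880 in the others. The mitochondrially encoded share of 1_3_IC was 2.86%, inside the range of the rest. Choroid plexus markers were also highest there, at 1366 CPM against between 589 and 876. So were markers of microglia (153 CPM, others at most 120), of caudal hindbrain and cord (109, others at most 76.1) and of brown fat (4.40, others at most 3.18). The remaining marker lists were not highest in that library. Without the pair in doubt, 0 genes of these lists were called, beside 0.242% of all genes. The medians were then 0.05 for complex I (32 of 37 positive) and 0.03 for complexes II and III. They were 0.07 for complex IV, 0.08 for complex V and 0.02 for ribosomal proteins (49 of 77 positive), and 50.3% of all genes were positive. The median of the mitochondrially encoded genes was 0.23 as labelled and 0.25 without the pair.

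Of the genes for mitochondrial transcription and replication, 14 of 22 were positive in PWS-IC as labelled, with a median of 0.02, and of those for RNA processing 27 of 31, with a median of 0.06. Without the pair 12 of 22 and 19 of 31 were positive, with medians of 0.01 and 0.02, and 0 were called in either setting. The smallest p as labelled were those of *Tefm*, a transcription elongation factor of mitochondria (0.22, SE 0.121), and *Grsf1*, an RNA-binding protein of mitochondrial RNA granules (0.16, SE 0.0698). Without the pair they were those of *Ssbp1*, the mitochondrial single-stranded DNA-binding protein (0.27, SE 0.0776), and *Trit1*, which modifies tRNAs (0.24, SE 0.0757).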

How the data were processed

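Paired, unstranded libraries of poly(A)-selected RNA were made and processed by the authors, who aligned reads to mm10 with STAR, placing multi-mapping alignments in random order, and counted them with featureCounts. The deposited raw counts per gene were the values analysed here. The authors also deposited a signal (counts divided by DESeq2 size factors) and FPKM and TPM values, of which the 40 FPKM and TPM columns were not used. Columns of the authors' comparison (log2 fold change with its standard error, a test score and p-values) were not used either. Of 22 labelled libraries, 20 had counts. The authors state that 1 outlier per series was removed, and the other 2 were not analysed here.

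Members were found by the prefix mt-. Members and lists were chosen with earlier results of these data known. Genotype was tested with edgeR 4.0.16 (TMM, quasi-likelihood, litter as a covariate, R 4.3.3) on genes with 10 or more counts in 4 or more libraries, and called at an adjusted p under 0.05. The difference between models was a contrast in a fit over both series. DESeq2 1.42.0, other scalings and filters, labelled sex as a term and each library left out were alternatives. Scripts were tested on simulated data. Genes named in full were both rRNAs, *mt-Nd6*, the highest mRNA and tRNA, every member called under any setting, and the largest fold change in each direction. From each list the gene of smallest p was named where none was called. Nuclear copies were searched among annotated transcripts only, with blastn 2.17.0+ (identity of 90% or more over 40 or more bases). At these depths 0 counts allow up to 3, a limit that covers counting error only.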

Additional observations from a re-analysis of the deposited data

Results flagged for a closer look

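In 118 combinations of gene or class and group, 9 held a single library far from the rest of its group. Chance alone gives about 1 in 20. In PWS-IC, library 1_10_IC stood above the others for *mt-Ta* (10.6 CPM, others 4.66 to 5.65), *mt-Tt* (1.70, others 0.510 to 0.644) and *mt-Tw* (3.72, others 1.49 to 1.67). The library labelled 1_3_IC, which goes against its label, was highest for *mt-Tq* (0.978 CPM, others 0.503 to 0.548). 4_4_IC was lowest for *mt-Nd1* (4062 CPM, others 4561 to 4581) and 4_5_IC had the lowest share of rRNA (0.382% of counts, others 0.421% to 0.427%). Of the WT libraries of that series, 1_5_IC was highest for *mt-Th* (1.78 CPM, others 1.47 to 1.55). In the PWS-cr series, 3_5_Cr was highest for *mt-Nd4* in mutants (2257 CPM, others 2079 to 2138) and 3_6_Cr for *mt-Tl2* in WT (0.522 CPM, others 0.148 to 0.255).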

How the results depend on the processing

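Genotype calls among mitochondrially encoded genes changed under 2 alternatives, both in PWS-IC. With no filter on low counts 6 were called (*mt-Ta*, *mt-Tw*, *mt-Tc*, *mt-Tn*, *mt-Rnr2* and *mt-Tq*), beside 471 of all 42507 genes, and without the 2 libraries in doubt 1 was called (*mt-Ty*). The other alternatives, DESeq2 included, called 0 as labelled, with 8 of 26 at an unadjusted p under 0.05 by DESeq2, beside 9.44% of all genes, and 7 by edgeR, beside 8.23%. The cause was not tested. Without the litter term the PWS-cr log2 fold changes turned to -0.00572 for *mt-Rnr1*, -0.00523 for *mt-Co1*, -0.00521 for *mt-Tw*, -0.026 for *mt-Nd3* and -0.17 for *mt-Ta*. With labelled sex as a term, *mt-Rnr1* in PWS-IC was -0.026 and the difference between models for *mt-Nd6* was -0.0085. That difference was -0.058 for *mt-Tp* and 0.029 for *mt-Th* without the libraries in doubt, and 0.20 for *mt-Nd3* with nuclear copies added. With each library left out in turn, PWS-cr values ran from -0.597 to 0.40 for *mt-Th*, from -0.0065 to 0.20 for *mt-Nd3*, from -0.13 to 0.16 for *mt-Ta* and from -0.28 to 0.15 for *mt-Ty*. The differences between models ran from -0.012 to 0.073 for *mt-Nd6*, from -0.033 to 0.17 for *mt-Tp* and from -0.55 to 0.44 for *mt-Th*. No paired analysis was possible because pups share no pairing beyond litter, which is already in the fit. Genes of a few counts, such as *mt-Th* and *mt-Tt* in the PWS-cr series, are limited by depth.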

Other observations

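*Lars2*, the nuclear gene of mitochondrial leucyl-tRNA synthetase, was named after its values were seen. It had between 21013 and 60322 counts in the PWS-cr series and between 67951 and 133525 in the PWS-IC series. The series did not overlap. Whether all of its counts came from its own mRNA was not tested. Since the genes that separate the series were not counted, no link to the mitochondrially encoded genes is read from it.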
